A study of Mus musculus with 4 samples.

Results

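The linker histone H1 genes were compared between mouse embryonic stem cells (ESCs) grown in serum and ESCs grown in 2i. The set was defined by name and held 8 genes, the clustered genes Hist1h1a, Hist1h1b, Hist1h1c, Hist1h1d, Hist1h1e and Hist1h1t and the separate genes H1f0 and H1fx, among 14533 genes in the deposited RNA-seq table. All 8 were in the table. The genes H1foo, H1fnt and Hils1 were not analysed here.

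Serum ESCs were kept in medium with fetal calf serum. 2i ESCs were kept in serum-free medium with PD0325901, which inhibits the kinase MEK, and CHIR99021, which inhibits the kinase GSK3. The cytokine LIF was present in both media, and the cells had been adapted for more than 20 days. There were 2 libraries of each condition from sorted cells, 4 in all. The sample labels give late G1-phase, shortly before DNA synthesis, although the design text of the series names early G1-phase. The study's own legend for these data also names late G1-phase. It calls the samples biological replicates, but whether they were separate cultures is not stated, so p-values measure only the spread between these samples. No cell line is given for these libraries.

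Linker histone H1 binds the nucleosome where the DNA enters and leaves it, and it helps nucleosomes fold into compact chromatin. Most H1 genes lie among the core histone genes in the Hist1 cluster and are made mainly in S-phase, when new DNA has to be packaged. Their mRNAs end in a short stem-loop in place of a poly(A) tail, and this stem-loop is bound by the protein Slbp. H1f0 and H1fx lie outside the cluster, are not tied to DNA synthesis in the same way, and H1f0 is known for its accumulation in cells that leave the cell cycle. Hist1h1t is the H1 gene of male germ cells. Since ribosomal RNA was depleted and cDNA was primed at random positions, mRNAs without a poly(A) tail could be captured.

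The stem-loops are shown here because they were found for the clustered H1 genes and not for H1f0 or H1fx. A stem of 6 bases on each arm around a loop of 4 bases was searched in the 150 bases after each stop codon in genome build NCBIM37 (mm9). The stem had to open with GG and the middle of the loop had to be TT. Pairs of G with T were allowed in the stem beside the usual pairs. Such an element was present for 6 of the 8 genes, 25 to 41 bases after the stop codon. Capitals mark the 16 bases of stem and loop, with 5 flanking bases on each side, read 5′ to 3′ on the strand of the gene.
Hist1h1a: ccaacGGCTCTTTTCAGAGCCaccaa
Hist1h1b: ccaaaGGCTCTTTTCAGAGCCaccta
Hist1h1c: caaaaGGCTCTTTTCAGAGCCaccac
Hist1h1d: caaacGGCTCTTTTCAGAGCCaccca
Hist1h1e: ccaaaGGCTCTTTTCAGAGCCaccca
Hist1h1t: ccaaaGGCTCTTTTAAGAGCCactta

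The 16 bases were the same in 5 genes, and Hist1h1t differed from them in the loop. The search itself fixed the opening GG and the TT of the loop, and so part of this likeness. No such element was found for H1fx, nor for H1f0, where the search began at the end of the gene model. As a background, 44 of 50 core histone genes on the same chromosomes had the element (88%), against 17 of 2706 other protein-coding genes (0.628%). The stem-loop of Hist1h1b lay beyond the end of its gene model, so reads over it may not have been counted.

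The clustered H1 genes lie on chromosome 13 and each consists of a single exon, at chr13:23855537-23856283 (plus strand) for Hist1h1a, chr13:21871752-21872494 (minus strand) for Hist1h1b, chr13:23830676-23832235 (plus strand) for Hist1h1c, chr13:23646901-23650721 (plus strand) for Hist1h1d, chr13:23713624-23714371 (minus strand) for Hist1h1e and chr13:23787680-23788588 (plus strand) for Hist1h1t. H1f0 is at chr15:78859152-78859689 on the plus strand, where GENCODE vM1 lists it as a pseudogene of 3 exons without a coding model. H1fx is at chr6:87930416-87931476 on the minus strand and is overlapped by Gm5577 on the other strand. Whether reads were counted by strand is not given in the sources used here, so the value of H1fx may hold reads of its antisense neighbour.

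The promoters follow the same groups of genes only in part. Of the motifs searched, only the CCAAT box was in all clustered genes and in neither H1f0 nor H1fx. RefSeq promoters (assembly GRCm38.p6, 250 bases before to 50 bases after the start of each gene) were found for all 8 genes and were located in NCBIM37 by exact match. For H1f0 the promoter ends at chr15:78858691, before its gene model begins at chr15:78859152. That model may thus lack part of the gene, and the stem-loop search and level per kb of H1f0 rest on it. The 8 promoters were searched on both strands for the H1 box AAACACA, the CCAAT box CCAAT, the TATA box TATAAA and the E2F sites TTTCCCGC and TTTGGCGC. The bases from -130 to 10 around the start are shown for Hist1h1b and Hist1h1d, which had both serum libraries above both 2i libraries, for Hist1h1c, which did not, and for H1f0. Motifs are in capitals.
Hist1h1b, chr13:21872485-21872624, minus strand: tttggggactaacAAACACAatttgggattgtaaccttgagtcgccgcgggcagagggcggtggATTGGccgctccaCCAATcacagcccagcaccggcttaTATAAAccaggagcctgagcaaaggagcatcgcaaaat
Hist1h1d, chr13:23646771-23646910, plus strand: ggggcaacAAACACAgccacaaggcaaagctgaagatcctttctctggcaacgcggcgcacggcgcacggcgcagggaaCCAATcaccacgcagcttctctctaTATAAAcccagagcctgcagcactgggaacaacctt
Hist1h1c, chr13:23830546-23830685, plus strand: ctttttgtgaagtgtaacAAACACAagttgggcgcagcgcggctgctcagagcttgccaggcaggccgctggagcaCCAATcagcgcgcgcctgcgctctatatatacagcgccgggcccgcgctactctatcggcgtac
H1f0, chr15:78858512-78858651, plus strand: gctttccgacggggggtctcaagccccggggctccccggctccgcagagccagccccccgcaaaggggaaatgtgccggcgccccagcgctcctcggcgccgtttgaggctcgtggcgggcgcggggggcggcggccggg

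The H1 box was present in 5 of the 8 promoters, from -122 to -112 upstream, against 7.18% of 32851 RefSeq promoters. Hist1h1a, H1f0 and H1fx had none. A CCAAT box was present in the 6 clustered genes (37.4% of all promoters) and the TATA box letters in 4 of them, not in Hist1h1c and Hist1h1t (13.6% of all promoters). Since exact letters were searched, variants such as the tatatata seen above in Hist1h1c were not counted. In Hist1h1b, CCAAT also occurs on the other strand and is seen above as ATTGG. The E2F letters were found in 0 of the 8 promoters (1.07% and 0.514% of all promoters). A match is a description of the letters and not evidence of binding.

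The libraries held 18939401 to 26570098 whole reads. The ESC label was checked on 6 pluripotency markers (Pou5f1, Sox2, Nanog, Zfp42, Dppa5a and Tdgf1), whose summed level was 47148 and 72229 normalized counts in serum ESCs and 59557 and 86709 in 2i ESCs. Of 6 fibroblast markers only Col1a1 was in the table, at 8.75 to 68.5 normalized counts. Of 7 primitive endoderm markers, 4 were in the table (Sox7, Foxa2 and Dab2 were not), and their sum was 72.0 and 109 in serum ESCs and 332 and 256 in 2i ESCs. Gata4, Gata6 and Sox17 were higher in both 2i libraries, whereas Pdgfra overlapped (47.0 and 41.8 in serum, 60.2 and 27.2 in 2i). The part of these low markers in the results was not tested. The libraries also differed in make-up. The 10 most abundant genes took from 17.5% (serum replicate 2) to 50.6% (serum replicate 1) of the reads.

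The summed H1 level was higher in both serum libraries than in both 2i libraries. It was 40306 and 40011 normalized counts in the serum libraries, against 17129 in 2i replicate 1 and 32224 in 2i replicate 2. The means were 40159 ± 209 (SD, n = 2) and 24677 ± 10674 (SD, n = 2), a log2 difference of 0.70 or 1.63-fold. The serum libraries were nearly equal, whereas the 2i libraries lay 0.91 apart on the log2 scale, and without 2i replicate 1 the log2 difference was 0.32. With 2 libraries against 2, an exact permutation test cannot go below p = 0.333, so no test was made of the sum. In CPM, the whole reads scaled to the library total, the values were 1516 and 2173 in serum ESCs and 762 and 1627 in 2i ESCs, so on that scale the groups overlapped. In bulk samples, fewer cells with H1 mRNA and less H1 mRNA per cell cannot be told apart.

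Each gene was tested with limma on log2(normalized count + 1), with Benjamini-Hochberg adjustment over 13005 genes, those whose mean reached 50 normalized counts in serum or in 2i. Calls required an adjusted p under 0.05 together with a log2 fold change beyond 1. None of the 8 H1 genes was called (0 of 8), beside 0% of all genes called higher in serum and 0.0154% called higher in 2i. At an unadjusted p under 0.05 and a log2 fold change beyond 1, 2 of the 8 H1 genes were higher in serum, Hist1h1b and Hist1h1d, against 2.97% of all genes. With edgeR on whole reads, 0 of 8 were called (0% of all genes in either direction) and 1 of 8 met the unadjusted limits, against 2.21% of all genes. With DESeq2, 0 of 8 were called, against 0.561% of all genes called higher in serum and 1.37% called higher in 2i, and 2 of 8 met the unadjusted limits, against 4.56% of all genes. Both serum libraries lay above both 2i libraries in Hist1h1b, Hist1h1d and Hist1h1t, 3 of the 8 genes (20.5% of all genes), and the reverse held for H1fx, 1 of the 8 (19.4% of all genes). Hist1h1t and H1fx passed the filter on low values only through the condition in which they were high, so their place in these counts carries no weight.

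Hist1h1b and Hist1h1d had the smallest p of the H1 genes in limma. Hist1h1b was at 6550 and 7725 normalized counts in serum ESCs and at 1785 and 3149 in 2i ESCs. Each serum library was thus above each 2i library, and the gap was wider than the distance between replicates. Its log2 fold change was 1.59 ± 0.50 (SE), with an adjusted p of 0.753 in limma, and the means differed 2.89-fold. DESeq2 gave a log2 fold change of 1.51 ± 0.47 (SE) and an adjusted p of 0.0592, the lowest adjusted p of any H1 gene in any fit. Hist1h1b therefore stood close to the threshold in DESeq2 and far from it in limma and edgeR (adjusted p = 0.692).

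Hist1h1d was at 8811 and 10376 normalized counts in serum ESCs and at 3280 and 5087 in 2i ESCs. Again the groups did not overlap. Serum over 2i, its log2 fold change was 1.23 ± 0.50 (SE), or 2.34-fold, with an adjusted p of 0.753 in limma and 0.136 in DESeq2. Without 2i replicate 1 the log2 fold changes of Hist1h1b and Hist1h1d were 1.18 and 0.91. After correction for GC content and length they were 2.07 and 0.81, so Hist1h1d then lay under the fold limit for a call.

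**Figure D1:**
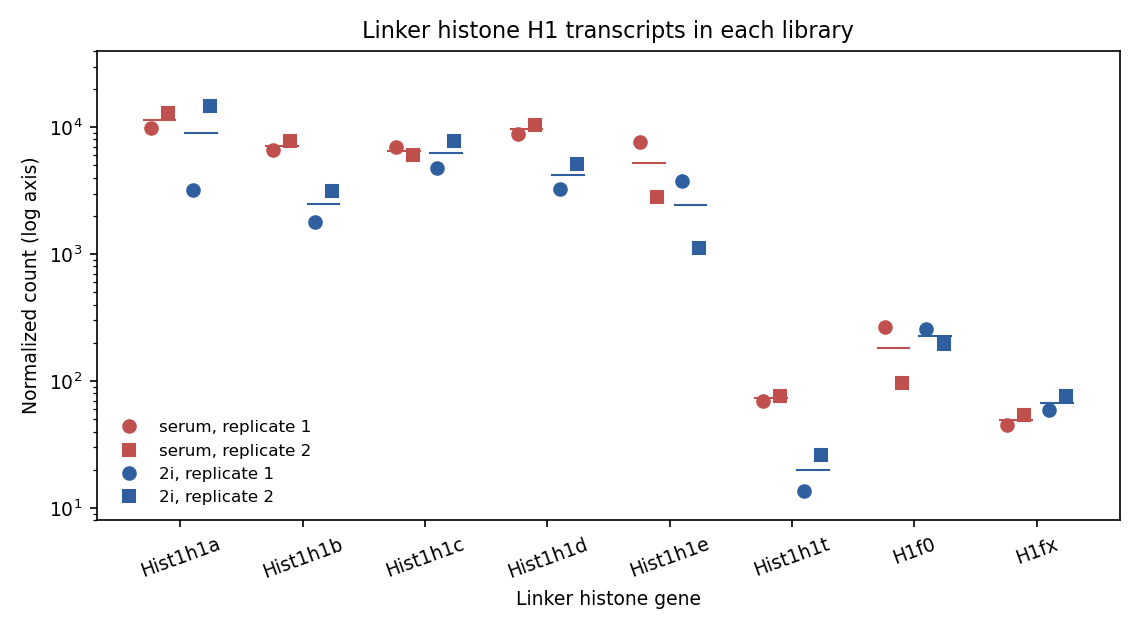
Normalized counts of the 8 linker histone genes in each library, on a log axis, with serum libraries in red, 2i libraries in blue, replicate 1 as circles, replicate 2 as squares and lines at the group means. Hist1h1b and Hist1h1d lie at 6550 to 10376 in serum and at 1785 to 5087 in 2i, whereas Hist1h1a and Hist1h1c overlap between conditions.

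Hist1h1c showed no such separation. It was at 7040 and 6002 normalized counts in serum ESCs and at 4799 and 7779 in 2i ESCs. The serum values lay between the 2i values. The log2 fold change was 0.089 ± 0.51 (SE) with an adjusted p of 0.975 (limma), and it was -0.032 with upper quartile scaling, under which the median of all genes moved to -0.12, and 0.084 relative to that median.

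Hist1h1a varied most between the 2i libraries. It was at 9890 and 12878 normalized counts in serum ESCs and at 3177 and 14805 in 2i ESCs. The highest and the lowest value were thus both from 2i ESCs, 4.66-fold apart. The log2 fold change was 0.72 ± 0.80 (SE) with an adjusted p of 0.838 (limma), and without 2i replicate 1 it was -0.39.

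Hist1h1e was high in replicate 1 and low in replicate 2 of both conditions. It was at 7635 and 2803 normalized counts in serum ESCs and at 3758 and 1109 in 2i ESCs. Replicates differed 2.72-fold in serum and 3.39-fold in 2i, more than the 2.14-fold ratio of the means. The log2 fold change was 1.18 ± 0.77 (SE) with an adjusted p of 0.759 (limma). Without 2i replicate 2 it was 0.30 and without serum replicate 1 it was 0.46. The core histone gene Hist1h3i, which had the highest log2 fold change of its class (H3, 1.31, or 0.47 without serum replicate 1 and 0.49 without 2i replicate 2), was likewise high in replicate 1 and low in replicate 2, at 16001 and 6362 normalized counts in replicate 1 of serum and 2i and at 4976 and 2032 in replicate 2.

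Reads of 43 bases can fit several H1 genes. For Hist1h1e, 76.1% of the 43-base words of its transcript occurred in no other gene of the annotated protein-coding transcripts, and 145 words were shared with Hist1h1d. The share was 90.6% for Hist1h1c, 95.1% for Hist1h1d and 99.3% for Hist1h1b, and 100% for Hist1h1a, Hist1h1t, H1f0 and H1fx. The most alike coding sequences were those of Hist1h1c and Hist1h1d (87.3% identical aligned bases), followed by Hist1h1d and Hist1h1e (84.7%), and the least alike were those of Hist1h1t and H1fx (59.7%). Because the authors' estimation divided shared reads between genes, the levels of Hist1h1c, Hist1h1d and Hist1h1e are the less certain ones.

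Hist1h1t was detected at a low level. It was at 70.0 and 75.8 normalized counts in serum ESCs and at 13.5 and 26.2 in 2i ESCs. The groups did not overlap, but the gene passed the filter on low values only through the serum libraries, in which it was high. The estimated log2 fold change was 1.90 ± 1.10 (SE), with an adjusted p of 0.753 (limma).

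H1f0 and H1fx, the genes outside the cluster, had the only log2 fold changes below 0 among the 8 in limma. H1f0 was at 265 and 96.2 normalized counts in serum ESCs and at 257 and 194 in 2i ESCs. The 2i values lay between the serum values. Its log2 fold change was -0.48 ± 0.65 (SE) with an adjusted p of 0.870 (limma), and without serum replicate 2 it was 0.25. H1fx was at 45.0 and 54.4 normalized counts in serum ESCs and at 59.2 and 75.7 in 2i ESCs. Both 2i libraries were above both serum libraries by a small margin, and the gene passed the filter only through the 2i libraries. Its log2 fold change was -0.43 ± 0.83 (SE) with an adjusted p of 0.916 (limma), but 0.13 with quantile normalization and 0.66 after correction for GC content and length.

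**Figure D2:**
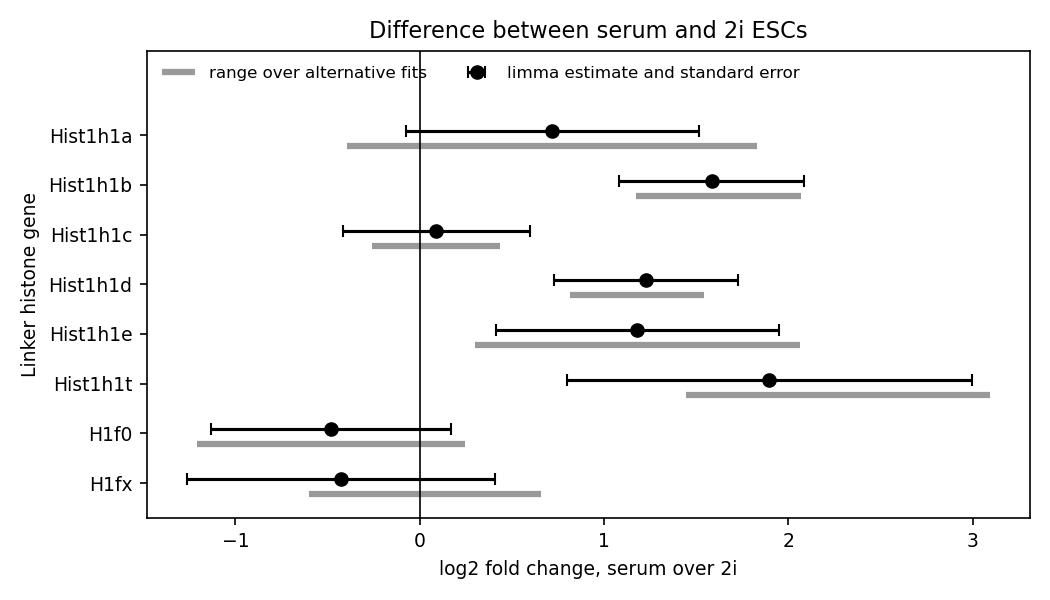
Log2 fold change, serum over 2i, of each linker histone gene on the horizontal axis, with points and error bars for the limma estimate and its standard error and grey bars for the range over the alternative fits. The grey bars of Hist1h1b, Hist1h1d, Hist1h1e and Hist1h1t stay above 0, and those of the other 4 genes cross 0. Hist1h1t and H1fx passed the filter on low values only through the condition in which they were high, so their direction carries no weight.

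The make-up of H1 mRNA was compared within each library, which removes the scaling between libraries. The count of the whole gene was divided by the kb of coding sequence (for H1f0, of its gene model). Reads over untranslated regions are thus included. On this scale Hist1h1b made up 15.8% and 18.8% of the H1 signal in serum ESCs and 10.1% and 9.41% in 2i ESCs. Hist1h1d made up 21.5% and 25.5% in serum ESCs and 18.7% and 15.3% in 2i ESCs. Hist1h1c made up 17.9% and 15.4% in serum ESCs and 28.5% and 24.5% in 2i ESCs. Hist1h1b and Hist1h1d thus had larger shares in both serum libraries, and Hist1h1c had a larger share in both 2i libraries. Per kb of gene model these directions were the same, but the sizes differed. Hist1h1d then took 5.81% and 7.10% in serum ESCs and 5.31% and 4.12% in 2i ESCs.

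The shares of Hist1h1a in 2i ESCs, 18.8% and 46.3%, lay on either side of those in serum ESCs, of which the higher was 32.8%. Those of Hist1h1e were 18.8% and 6.94% in serum ESCs and 21.6% and 3.37% in 2i ESCs. Both overlapped between conditions and differed mainly between the replicates. H1f0 took 0.805% and 0.295% of the H1 signal in serum ESCs and 1.83% and 0.730% in 2i ESCs, and the groups overlapped. H1fx took 0.129% and 0.157% against 0.396% and 0.268%, and Hist1h1t 0.180% and 0.197% against 0.0813% and 0.0835%.

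The log2 ratio of Hist1h1b to Hist1h1c was -0.10 and 0.36 in serum ESCs and -1.43 and -1.30 in 2i ESCs. The serum libraries were 1.50 higher on average, and the replicates of a condition lay less than that apart. The log2 ratio of Hist1h1d to Hist1h1c was 0.32 and 0.79 in serum ESCs and -0.55 and -0.61 in 2i ESCs, a difference of 1.14. By contrast, the log2 ratio of Hist1h1e to Hist1h1a was -0.37 and -2.20 in serum ESCs and 0.24 and -3.74 in 2i ESCs, so that it differed more between replicates than between conditions. These ratios were chosen after the values of the genes were known and are given without a test.

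**Figure D3:**
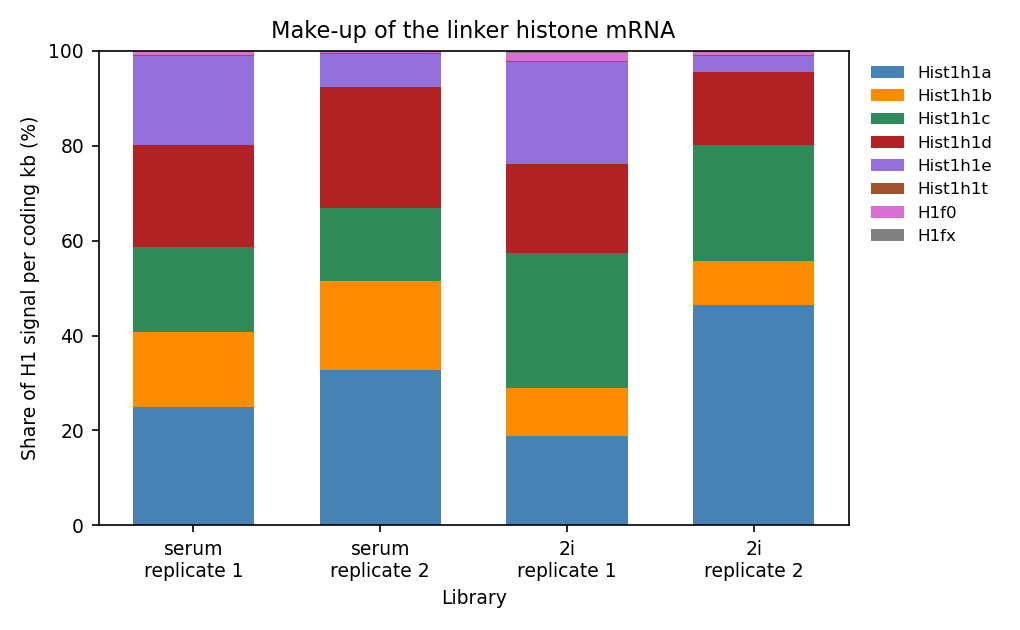
Share of each linker histone gene in the summed H1 signal per kb of coding sequence, in percent, as 1 stacked bar per library. The signal is the count of the whole gene, untranslated regions included. Hist1h1c takes 15.4% to 17.9% in the serum libraries and 24.5% to 28.5% in the 2i libraries, while the shares of Hist1h1a and Hist1h1e swing between replicates.

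In serum ESCs the order of mean levels per kb of coding sequence was Hist1h1a (17732 normalized counts per kb), Hist1h1d (14404), Hist1h1b (10622), Hist1h1c (10205), Hist1h1e (7908), H1f0 (338), Hist1h1t (116) and H1fx (87.7). The libraries of Hist1h1d lay above those of Hist1h1b, and H1f0, Hist1h1t and H1fx were separated from each other and from the first 5. The other neighbours in this order overlapped. In 2i ESCs the order of levels per kb of coding sequence was Hist1h1a (14005), Hist1h1c (9842), Hist1h1d (6282), Hist1h1e (3687), Hist1h1b (3671), H1f0 (423), H1fx (119) and Hist1h1t (31.5). Neighbours among the first 5 overlapped, and the last 3 were separated. Both orders rest on whole-gene counts divided by the coding length, so they are not levels of the coding part alone. Per kb of the whole gene model the order of the first 5 changed, because the models of Hist1h1d and Hist1h1c include 3′ untranslated regions of 3097 and 879 bases. On that scale Hist1h1d fell to 2511 normalized counts per kb in serum ESCs, below Hist1h1b at 9607, Hist1h1e at 6977 and Hist1h1c at 4180.

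Core histone genes, which code for the H2A, H2B, H3 and H4 proteins of the nucleosome, were examined beside H1. Of 61 tested, 46 were higher in serum and the median log2 fold change was 0.77. For the H1 genes these values were 6 of 8 and 0.95, and for all genes tested 6536 of 13005 and 0.0047. The H1 values include Hist1h1t and H1fx, which passed the filter on low values only through the condition in which they were high. By class the medians were 1.19 (H3), 0.94 (H2B), 0.92 (H2A) and 0.28 (H4), and without 2i replicate 1 those of H2B, H2A and H4 were 0.34, -0.040 and -0.15. By the full fit, 0 of the core histone genes were called by limma or edgeR. At an unadjusted limma p under 0.05 and a log2 fold change beyond 1, 10 were higher in serum and 2 in 2i. Over all 13005 genes these counts were 386 and 390. DESeq2 called 2 core histone genes in each direction, beside 73 of all genes higher in serum and 178 higher in 2i. The lowest log2 fold changes of a class were those of Hist1h2aj (H2A), listed at 0 and 11.7 normalized counts in serum ESCs and 336 and 302 in 2i ESCs and called by DESeq2 (adjusted p = 0.00209), Hist1h2bn (H2B) at -1.19 and Hist1h4k (H4) at -0.92. Hist1h2aj passed the filter on low values only through the 2i libraries, so its call and its place in these counts carry no weight. Core histone genes are near-identical copies, so single values are uncertain. H1 took 16.5% and 15.1% of the summed H1 and core histone counts in serum ESCs and 14.3% and 15.9% in 2i ESCs. The share of H1 in histone mRNA thus overlapped between conditions. Across the core histone genes the median log2 difference between 2i replicates 1 and 2 was -0.87. Their median log2 fold change was 0.23 without 2i replicate 1. The classes differed in this. The median log2 difference between the 2i replicates was -0.17 (H3), -0.39 (H2B), -1.37 (H2A) and -1.42 (H4), against -0.66 for the H1 genes. H3 and H2B thus differed less between the 2i libraries than H1 did, and H2A and H4 more.

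Around the clustered H1 genes, the same 7 core histone genes were tested within 25 kb of Hist1h1c and of Hist1h1a, which are neighbours. All 7 were higher in serum by the limma estimate, with log2 fold changes of 0.55 to 1.41. The log2 fold change of Hist1h1c itself, 0.089, lay below this range, and that of Hist1h1a, 0.72, within it. The standard errors of Hist1h1c (0.51) and of the lowest of the 7 (0.50) overlapped, so Hist1h1c was not set apart from all its neighbours. Near Hist1h1d, 11 of 12 core histone genes were higher in serum, with a median log2 fold change of 1.13. Among them was Hist1h2bh, the H2B gene with the highest log2 fold change, at 2800 and 2603 normalized counts in serum ESCs and 237 and 249 in 2i ESCs. Its log2 fold change was 3.47 ± 0.42 (SE), with an adjusted p of 0.211 in limma and 4.25e-17 in DESeq2. With the replicate number as a block the adjusted p was 8.40e-05 in limma, and 0.0637 with the block after correction for GC content and length. Near Hist1h1b the 3 core histone genes tested had a median log2 fold change of 1.28, with standard errors of 0.80, 2.06 and 0.83. Just beyond this window on the far side, Hist1h2bn was at -1.19 and Hist1h4k at -0.92, while another gene was at 1.40. The picture near Hist1h1b thus depends on the window. Near Hist1h1t there were 3 with a median of 1.07, and near Hist1h1e a single gene at 1.83.

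**Figure D4:**
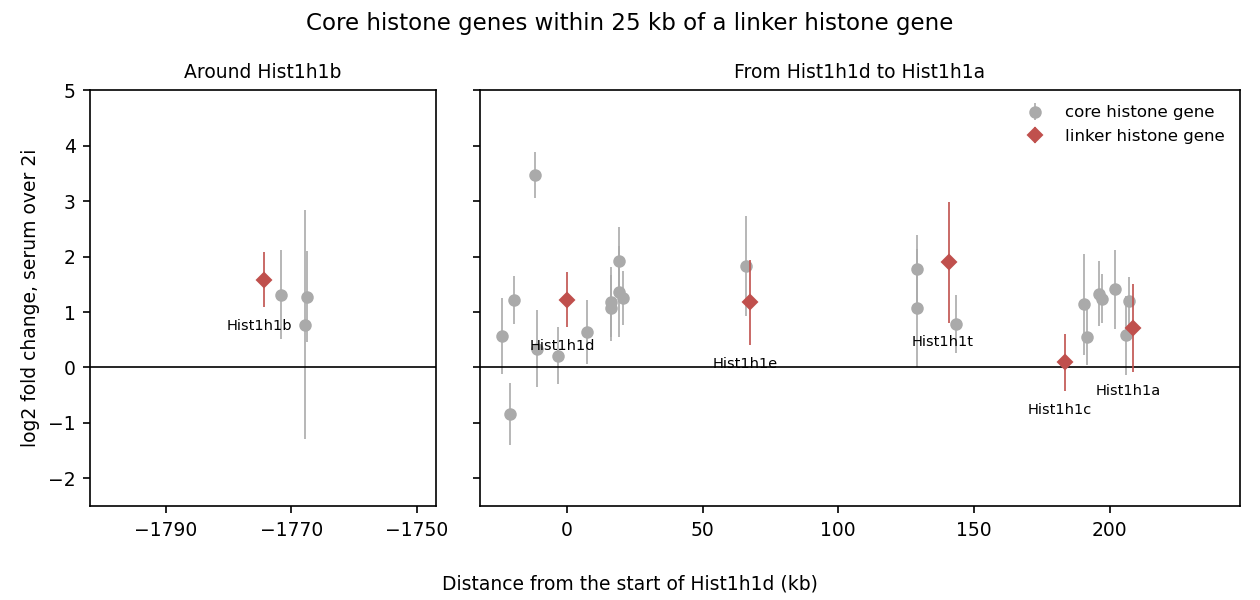
Log2 fold change, serum over 2i, of linker histone genes (red diamonds) and of the core histone genes within 25 kb of them (grey circles), with standard errors, by distance in kb from the start of Hist1h1d. The estimate of Hist1h1c, 0.089, lies below those of its 7 core histone neighbours, 0.55 to 1.41, but its error bar overlaps that of the lowest.

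Of 12 factors that make histone mRNA, 0 were called by limma or edgeR. DESeq2 called 1 higher in serum, beside 0.561% of all genes. The log2 fold change was above 0 for 9 of the 12, against 6536 of 13005 genes tested. The median was 0.59, which was 0.38 without 2i replicate 1 and 0.34 after correction for GC content and length. Both serum libraries were above both 2i libraries in 6 (20.5% of all genes) and below them in 3 (19.4% of all genes). Zfp473, a zinc finger protein of the complex that cuts the 3′ end of histone pre-mRNA, was at 415 and 611 normalized counts in serum ESCs and 90.3 and 124 in 2i ESCs. Its log2 fold change was 2.24 ± 0.52 (SE) with an adjusted p of 0.753 in limma, and it was called by DESeq2 with an adjusted p of 0.00555. Npat, the activator of histone gene transcription, had a log2 fold change of 0.86 and Casp8ap2, a factor of the same nuclear bodies, 1.15 (adjusted p = 0.753 for both, limma). After correction for GC content and length these were 0.35 and 0.63, and Casp8ap2 was at 0.73 without serum replicate 2. Slbp, which binds the stem-loops shown above, was at 3096 and 4454 normalized counts in serum ESCs and 1998 and 3960 in 2i ESCs, and the groups overlapped. Lsm10 and Sympk, which also act in 3′ end processing, each had a log2 fold change of -0.71 (adjusted p = 0.763 and 0.761, limma). Lsm10 was at -0.27 after that correction and at -0.40 without serum replicate 2, and Sympk at -0.27 without 2i replicate 1.

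Genes for proteins that carry, replace or modify H1 were also listed. Of 18 tested, 15 had a log2 fold change above 0, against 6536 of 13005 genes tested. The median was 0.55, or 0.33 without serum replicate 2. Both serum libraries were above both 2i libraries in 8 (20.5% of all genes) and below them in 0 (19.4% of all genes). By limma, edgeR or DESeq2, 0 were called, and 0 had an unadjusted limma p under 0.05 with a log2 fold change beyond 1. Nasp, a chaperone of linker and core histones, was at 10373 and 24268 normalized counts in serum ESCs and 6682 and 4879 in 2i ESCs. Its log2 fold change was 1.47 ± 0.61 (SE) with an adjusted p of 0.753 (limma), and 0.86 without serum replicate 2. The acidic chaperones Set and Ptma had log2 fold changes of 1.03 and 0.81, and Hmgb1, which competes with H1 for linker DNA, 0.92 (adjusted p = 0.759, 0.783 and 0.753, limma). Without serum replicate 2 those of Set and Hmgb1 were 0.32 and 0.54. Set, Ptma and Hmgb1 have near-identical copies elsewhere in the genome, so that their counts are uncertain. Of the related methyltransferases Ehmt1 and Ehmt2, Ehmt1 had a log2 fold change of 0.84 with separate groups and Ehmt2 of -0.80 with overlapping groups (adjusted p = 0.753 and 0.774, limma). Ehmt2 was at -0.18 without serum replicate 1 and at -0.15 without 2i replicate 1.

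Replication genes that rise towards S-phase were given as values beside the H1 sum. Of 12 tested, 11 had a log2 fold change above 0, against 6536 of 13005 genes tested. The median log2 fold change of the replication genes was 0.43, or 0.016 without 2i replicate 1. Their summed level was 52239 and 59267 normalized counts in serum ESCs and 29795 and 51520 in 2i ESCs, so 2i replicate 1 was the lowest library for both sums, while 2i replicate 2 was close to serum replicate 1 for the replication genes. The median log2 difference between 2i replicates 1 and 2 was -0.80 for these genes and -0.66 for the H1 genes. Cdc6, a loading factor of the replicative helicase, had a log2 fold change of 1.50 ± 0.50 (SE, adjusted p = 0.753 in limma). Rrm2, a subunit of ribonucleotide reductase, had a log2 fold change of 1.83 ± 0.52 (SE), with an adjusted p of 0.753 in limma and 0.0362 in DESeq2, and was lowest in 2i replicate 2. The part of cell cycle position in the H1 levels was not tested.

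Outside the H1 and core histone genes, which were left out of this search, the genes nearest in pattern to the H1 sum were Xpo5, Naa35, Actl6a, Golga1 and Helq. Their root mean square log2 difference from the centred H1 sum over the 4 libraries was 0.042 to 0.063. The median over the genes searched was 0.70. The nearest genes were picked by this difference, so its small size carries no weight. Among the H1 genes this difference was smallest for Hist1h1d (0.26) and largest for Hist1h1e (1.09), with H1f0 next (0.93).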

How the data were processed

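RNA was sequenced from 2 libraries of serum ESCs and 2 of 2i ESCs, with groups taken from the labels. The authors extracted total RNA from sorted cells, depleted ribosomal RNA, primed at random, sequenced single ends of 43 bases, mapped them to mm9 by Bowtie and quantified genes by MMSeq, so that reads shared by transcripts were split among them. What was deposited is a signal per gene and library, the normalized count, obtained by dividing a gene's count by the library's size factor. All values (100%) were whole multiples of a step within a tolerance of 0.1 step. The multiples are called whole reads here, but since shared reads were split they may be estimates rounded to whole numbers. The annotation used in the authors' counting and its strand setting are not given in the sources used here.

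Here, log2(normalized count + 1) was fitted with limma (3.58.1, R 4.3.3) with a variance trend and no replicate term, over 13005 genes with a mean of at least 50 in either group. The pseudocount understates changes of low genes. The authors kept genes with at least 50 reads and used DESeq2. edgeR (4.0.16, quasi-likelihood) and DESeq2 (1.42.0) on the whole reads, other scalings (TMM, upper quartile, quantile), pseudocounts of 0.5 and 5, other filters, a replicate block, a correction for GC content and length (mgcv 1.9.3) and leaving out each library were alternatives. The scripts were tested on simulated data. The depth was 18939401 to 26570098 whole reads, and with 2 libraries per group the spread between replicates, more than the depth, sets the precision. Gene positions are from GENCODE vM1 (NCBIM37), which held 14462 of the 14533 genes, and promoters from RefSeq (GRCm38.p6).

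The H1 genes and the gene lists were chosen with earlier results of these data known. Named genes were taken from the 8 H1 genes and the gene lists. Of the core histone genes, those with the highest and the lowest fold change in a class could be named. The 5 genes nearest in pattern to the H1 sum were searched outside the H1 and core histone genes.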

Additional observations from a re-analysis of the deposited data

How the results depend on the processing

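No H1 gene was called in any of the 17 alternative fits. The 4 that left out a library, edgeR and the fits after GC and length correction called 0 genes in either direction, so the absence of a call there says nothing about H1. Only DESeq2 and the replicate block without that correction called any gene higher in serum (73 and 44). In all other fits, the lack of a call higher in serum likewise says nothing about H1. Hist1h1b, Hist1h1d and Hist1h1e were higher in serum in every fit that held them. So was Hist1h1t, but it passed the filter on low values only through the serum libraries, so its direction carries no weight. Hist1h1a ranged from -0.39 (2i replicate 1 left out) to 1.83 (2i replicate 2 left out) on the log2 scale. That of Hist1h1c was -0.032 with upper quartile scaling and -0.26 to 0.44 when a library was left out, and was -0.026 without serum replicate 1. H1f0 ranged from -1.21 to 0.25, the latter without serum replicate 2. H1fx was 0.13 with quantile normalization and 0.66 once GC content and length were corrected for, both with the replicate block and without it. Slbp ranged from -0.093 (2i replicate 1 left out) to 0.89. The summed H1 level ranged from 0.32 to 1.23 when a library was left out. The causes were not tested.

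The libraries share replicate numbers, and the differences between replicates 1 and 2 correlated across genes between the conditions (r = 0.48). The labels do not say that a number marks a shared batch. With the replicate block, 44 genes were called higher in serum and 159 higher in 2i, and the adjusted p of Hist1h1b was 0.187. Higher in serum, DESeq2 called 73 genes. Higher in 2i, the count was 2 with limma, 178 with DESeq2, 4 with a mean of at least 200, 1 without the trend, and 0 with edgeR, without any 1 library (range 0 to 0) and after the GC and length correction with and without the block. H1f0 had no transcript sequence and no corrected value. Hist1h1t and H1fx were below the mean of 200.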
